A study of Mus musculus with 6 samples.

Results

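The regions described here are the stretches of the mouse genome with H3K9me3 signal that the authors' annotation placed in an exon, a 5′ untranslated region (UTR) or a 3′ UTR of a gene on chromosomes 1 to 19. They were chosen by that annotation alone, without use of their signal, and numbered 1591 of 58511 regions in all, or 2.78% of the 57177 autosomal regions. Of these, 1312 were exon regions, 75 were 5′ UTR regions and 204 were 3′ UTR regions, and 98.4% were 400 bp wide. Promoter, intron and distal intergenic regions made up most of the remaining autosomal set, with 11788, 12238 and 30993 regions.

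H3K9me3 was mapped by CUT&Tag, in which an antibody directs the Tn5 transposase to cut and tag DNA near the mark, in endothelial progenitor cells (EPCs) from the bone marrow of young adult C57BL/6J mice. The 3 groups were male cells (M-EPC), female cells (F-EPC) and cells of females whose ovaries had been removed (OVX-EPC), with 2 libraries each. All groups shared magnetic selection for Sca-1 and CD31 and expansion in EGM-2 medium, and no genotype or agent differed between them. Cells were frozen in duplicate vials and no source used here ties the replicates to separate animals or cultures, so p-values measure only the spread between libraries. The signal is from a mixed population, in which fewer cells with the mark and less of the mark per cell cannot be told apart.

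H3K9me3 is a methyl mark of histone H3 found in compacted, silenced chromatin. Within genes it is well known at the family of C2H2 zinc finger genes, a large set of DNA-binding repressors, many with a KRAB domain, that stand in clusters of related copies. Their last exon encodes a row of zinc fingers joined by a short conserved linker peptide, and H3K9me3 is known to cover this exon in many cell types. Exons and UTRs are otherwise the transcribed, mostly unique parts of genes, which sets them apart from the repeats where much of the mark lies.

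The linker of the zinc fingers could be read in the regions themselves. The stretches below are the 6 that came first by signal among zinc finger exon regions that lie wholly in coding sequence and hold its codons, and they are shown because this family held 11.1% of the exon and UTR regions. Each is given on the coding strand from the GRCm38 (mm10) genome, and capitals mark GGAGAGAAA, the codons for the glycine, glutamate and lysine of the linker.
Zfp763, chr17:33019244-33019273, minus strand: gactcacactGGAGAGAAAccttatacatg
Zfp81, chr17:33334832-33334861, minus strand: aattcacactGGAGAGAAAccgtatttatg
Zfp386, chr12:116059944-116059973, plus strand: aatccacactGGAGAGAAAccctacaggtg
Zfp111, chr7:24198800-24198829, minus strand: agtccacacaGGAGAGAAAccctataaatg
Zfp663, chr2:165352793-165352822, minus strand: aactcacacgGGAGAGAAAccctatgaatg
Zfp160, chr17:21026023-21026052, plus strand: aactcacactGGAGAGAAAccttacaggtg

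All 6 stretches lay in the last exon of their gene, for example exon 4 of 4 in Zfp763 and exon 6 of 6 in Zfp663. The region of Zfp763 held 84 and 79 reads in M-EPC and 44 and 79 reads in OVX-EPC. The region of Zfp160 held 48 and 50 reads in M-EPC and 34 and 47 reads in OVX-EPC. OVX-EPC replicate 2 reached the M-EPC values in the first case, so the groups overlapped there. The 9 letters were searched on both strands of every region of 400 bp and were found in 40 of 123 zinc finger last exon regions (32.5%). They were found in 30 of 1391 exon and UTR regions of other genes (2.16%) and in 757 of 56704 autosomal regions (1.335%). A match describes the sequence and shows nothing about what binds there.

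In reads that fell in regions, M-EPC replicates held 501237 and 573821, OVX-EPC replicates 501840 and 548290, and F-EPC replicates 288353 and 410439. The F-EPC libraries stopped partway through the genome, so F-EPC was used only on chromosome 1, chromosomes 10 to 15 and the start of chromosome 16. These covered regions numbered 26999 and included 714 exon and UTR regions, namely 589 exon, 32 5′ UTR and 93 3′ UTR regions. A covered exon or UTR region held a median of 5 to 7 reads per library, which makes single weak regions imprecise. Endothelial marker genes had 2 exon regions (Vwf and Flt1), with 1 to 9 reads per M-EPC or OVX-EPC library, and markers of other marrow cells had 0. A silencing mark does not identify a cell type, so the label of the cells could not be checked this way.

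The exon and UTR regions had a sequence makeup between promoters and the rest of the genome. Their GC content was 51.3% ± 7.14 (SD, n = 1591 regions), compared with 57.2% in promoters, 47.5% in introns and 47.6% in distal intergenic regions. CpG dinucleotides occurred 2.27 times per 100 bp, compared with 5.04 in promoters and 1.01 in introns. Repeat-masked sequence made up 12.7% of them, against 31.7% of introns and 40.5% of distal intergenic regions. On average 91.6% of the 25-base words of an exon or UTR region occurred at 1 place in the genome, compared with 76.5% in distal intergenic regions. In 76 of the 1591 regions fewer than 50% of the words were unique, so that reads there may have come from other copies.

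Set against GENCODE gene models, a median of 272 bases per region were exonic, and 652 regions lay wholly within exons. Some 289 regions lay wholly in coding sequence, 404 held no coding base and 4 overlapped no exon of the models used. Protein-coding genes held 1455 of the regions (91.5%), long non-coding RNA genes 101 and pseudogenes 32. The 5′ UTR label often covered coding sequence, with a median of 163 coding bases per region and 11 of 75 regions wholly coding. By contrast, 3′ UTR regions held a median of 0 coding bases.

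The gene name given to a region was often not the gene whose exon it covered. The authors' tables named the gene with the nearest transcription start, and for 630 of the 1591 regions (39.6%) this was a different gene. An exon region of Zfhx3, a large transcription factor gene, was named Mir3108. A 3′ UTR region of Lars2, the mitochondrial leucyl-tRNA synthetase gene, was named Limd1. The 3′ UTR regions of Zfp180 were named Zfp112. The gene whose exon or UTR was covered is used throughout below, which gave 1367 genes. Most had 1 region, and 182 genes had 2 or more, led by Ttn (7 regions), Zfhx3 (6), Plec (5) and Ryr2 (5), all genes with long coding sequences.

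The order of exons in the authors' annotation also needed care. On the plus strand 545 of 564 exon numbers equalled the order from 5′ to 3′ in GENCODE. On the minus strand 712 of 732 equalled the reverse order, so a low number there often meant an exon near the 3′ end. Exons are therefore numbered here from the 5′ end of the transcript. In this order 510 of 1296 exon regions (39.4%) lay in a last exon, 772 in an inner exon, 2 in a first exon of several and 12 in the only exon of a gene. The annotation counts the 3 kb around a transcription start, where first exons lie, as promoter. Last exons covered by a region had a median width of 2471.5 bp, and inner exons 161 bp, so that most regions over inner exons extended into introns.

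Genes of the C2H2 zinc finger family, taken by their names, had 177 of the 1591 regions (11.1%) in 130 genes, while these genes hold 1.96% of autosomal exonic bases. They comprised 139 exon, 11 5′ UTR and 27 3′ UTR regions. By the names in the authors' tables the family would have had 137 regions. Of its exon regions that could be numbered, 124 of 137 (90.5%) lay in the last exon, which makes up 81.9% of the exonic bases of these transcripts. In other genes 386 of 1159 exon regions (33.3%) lay in the last exon, which makes up 44.9% of their exonic bases. The share of regions leaves out those labelled UTR or promoter, while the share of bases includes UTRs and first exons. The shares of regions and of bases are thus not alike in what they cover, and their gap is no measure of enrichment or depletion. The zinc finger regions stood close together, since 86 of 177 (48.6%) had another exon or UTR region within 10 kb, compared with 202 of 1414 others (14.3%). Chromosome 7 held 42 of them, chromosome 13 held 29, chromosome 17 held 23 and chromosome 9 held 15. These are counts over positions and were not tested.

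**Figure D1:**
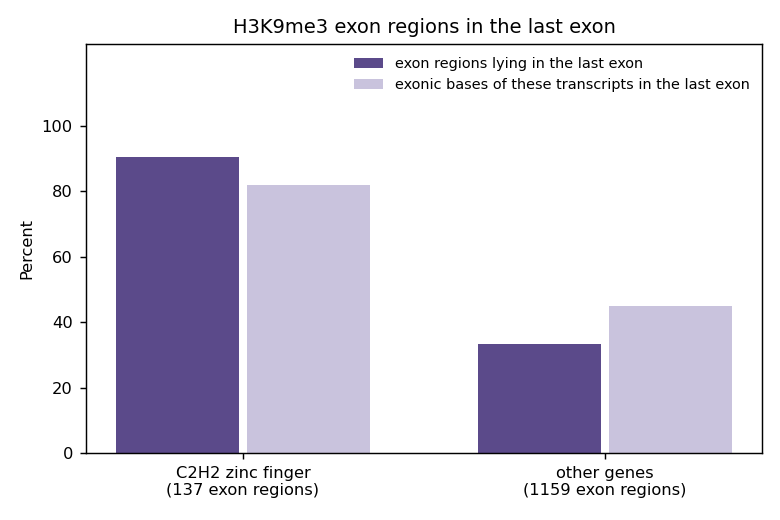
Percent of numbered exon regions that lie in the last exon of their transcript (dark bars) beside the mean percent of the exonic bases of those transcripts in that exon (light bars). The dark bar stands at 90.5% for 137 regions in C2H2 zinc finger genes and at 33.3% for 1159 regions in other genes, where it is below the light bar of 44.9%. Dark bars leave out regions labelled UTR or promoter, while light bars include UTR and first exon bases, so their gap is no measure of depletion.

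The zinc finger regions carried several times the signal of the other exon and UTR regions in every library. Levels are medians of reads per 1000000 covered-region reads (CPM) over covered regions exactly 400 bp wide. Of the 45 covered zinc finger regions, those of this width had medians of 112 and 117 CPM in the M-EPC libraries. They had 88.4 and 79.3 CPM in F-EPC, and 88.5 and 114 CPM in OVX-EPC. Of the 669 other covered exon and UTR regions, those of this width had medians of 25.0 and 25.5 CPM in the M-EPC libraries. They had 20.8 and 19.8 CPM in F-EPC, and 23.9 and 22.4 CPM in OVX-EPC. The ratio of these medians lay between 3.7 and 5.1 in the 6 libraries. In the zinc finger regions both F-EPC libraries were below both M-EPC libraries, while OVX-EPC replicate 1 stood with F-EPC and OVX-EPC replicate 2 with M-EPC. In the other exon and UTR regions both OVX-EPC libraries lay between those of F-EPC and M-EPC. The zinc finger regions were less unique in sequence, with 82.4% of words unique against 92.7% in the others, and lower in GC content, at 46.7% against 51.9%. The part of either in the level was not tested. Across chromosomes in M-EPC and OVX-EPC, the median of the mean level was 41.4 CPM in the 177 zinc finger regions and 11.7 CPM in the others, here scaled to the reads of all regions.

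The exon and UTR regions were not shown to differ in level from all other autosomal regions pooled, but they lay below promoters. The median log2(CPM + 1) of exon and UTR regions minus that of all other covered autosomal regions of 400 bp was -0.12 ± 0.19 (SD, n = 6 libraries). It was above 0 in 1 of 6 libraries (two-sided exact sign-flip permutation test, p = 0.25). The smallest possible p is 0.03125 where no library has a difference of 0, and it was higher here because M-EPC replicate 1 had a difference of 0. The difference was 0.09 against introns alone (p = 0.5) and -0.06 against distal intergenic regions alone (p = 0.625) in the same exact test. The difference from introns came from the M-EPC libraries, since the medians were equal in both F-EPC and both OVX-EPC libraries. With these ties 0.5 is the smallest p the intron test could give, so it cannot decide the question. Against promoters, exon and UTR regions had the lower median in each library. Their medians were 25.0 and 29.7 CPM in M-EPC, 24.3 and 23.8 CPM in F-EPC, and 23.9 and 22.4 CPM in OVX-EPC. Promoter medians were 44.9 and 38.2 CPM in M-EPC, 34.7 and 35.7 CPM in F-EPC, and 38.3 and 35.8 CPM in OVX-EPC. The difference from promoters alone was not tested.

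**Figure D2:**
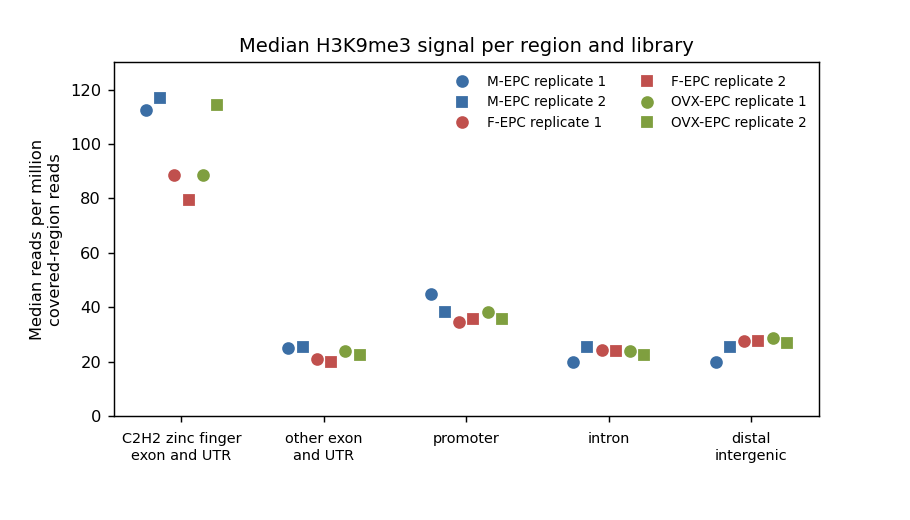
Median CPM, scaled to covered-region reads, of the covered 400 bp regions of each class in each of the 6 libraries (circles are replicate 1, squares replicate 2). The zinc finger exon and UTR regions lie between 79.3 and 117 CPM, above every other class, while the other exon and UTR regions lie between 19.8 and 25.5 CPM, near introns.

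Among exon regions, 3 neighbouring ones of Sfi1, a gene for a centrosome-linked protein, ranked among the highest 5. The region at exon 9 of 32 (chr11:3159596-3159995) had 1288 and 1317 CPM in M-EPC, 1207 and 1224 CPM in F-EPC and 1603 and 1411 CPM in OVX-EPC, scaled to covered-region reads. OVX-EPC was highest and F-EPC lowest, and the groups did not overlap, but no comparison of the region passed (limma adjusted p = 0.647 between OVX-EPC and M-EPC, and 0.383 between F-EPC and M-EPC). Of its 25-base words 91.0% were unique in the reference, a count that cannot see copies the assembly does not hold. Only 11 of its 400 bases were exonic. At the neighbouring Sfi1 regions (chr11:3156637-3157036 and chr11:3157687-3158086) both F-EPC and OVX-EPC overlapped M-EPC, while OVX-EPC stood above F-EPC without overlap. The last exon of Zfp810 (exon 8 of 8) had 385 and 359 CPM in M-EPC and 297 and 339 CPM in OVX-EPC, from here on scaled to the reads of all regions. The region in exon 9 of 10 of Zfhx3 had 343 and 253 CPM in M-EPC and 173 and 219 CPM in OVX-EPC. At both, M-EPC was higher without overlap, and neither difference passed (limma adjusted p = 0.509 and 0.194).

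Among 3′ UTR regions the highest levels were at Zfp180 and Lars2. Zfp180 (chr7:24105844-24106243) had 511 and 422 CPM in M-EPC and 391 and 367 CPM in OVX-EPC. Lars2 (chr9:123461865-123462264) had 447 and 380 CPM in M-EPC and 458 and 465 CPM in OVX-EPC. At Lars2 only 45.2% of the words were unique, compared with 96.5% at Zfp180. A further region of Zfp180 and regions of Zfp110 and Zfp369 held the next places. Among 5′ UTR regions, 4 of the highest 5 were in zinc finger genes (Zfp938, Zfp120, Zfp426 and Zscan20), with 40.1 to 85.7 CPM over M-EPC and OVX-EPC libraries. Between 364 and 400 of the 400 bases of these 4 were coding in GENCODE, whatever their 5′ UTR label.

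Predicted genes, named Gm or Rik, had 164 exon and UTR regions (10.3%), while they hold 24.1% of autosomal exonic bases. The remaining gene lists held few. Olfactory and vomeronasal receptor genes had 6 regions against 4.77% of exonic bases, with the highest of them at Olfr53 and Olfr5. The clustered protocadherin and replication-dependent histone lists had 1 region each. Among genes that write, read or remove H3K9 methylation, Atf7ip, a partner of the methyltransferase SETDB1, had 2 regions. No olfactory or vomeronasal receptor, protocadherin, histone or H3K9 methylation region held enough signal to be tested between OVX-EPC and M-EPC. Among vascular and inflammatory genes Vwf, the von Willebrand factor gene, had the 1 region, with 6 to 9 reads per library in M-EPC and OVX-EPC.

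To ask whether the mark at exons and UTRs differed between ovariectomized female and male cells, OVX-EPC was compared with M-EPC over all chromosomes. H3K9me3 was lower in OVX-EPC at 4 regions, namely exons of the long non-coding RNA genes Gm20750 and 4930552P12Rik, the 5′ UTR of Stx2 and an exon of Prune2. It was higher at 0 regions (limma, Benjamini-Hochberg adjusted over all regions tested, with a 0.05 threshold). Of the 1591 regions 533 had a signal value of at least 10 in 2 or more libraries and were tested, and the 4 are 4 of those. Prune2 and 4930552P12Rik entered the test through M-EPC alone, the group where they were high. Their mean signal in OVX-EPC was 4.49 and 5.81, with both libraries below 10. Over all 16931 regions tested, 0.449% were called and 0.402% were called lower, and on autosomes 67 of 16616 were called, each of them lower.

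At the Gm20750 region (chr3:52909978-52910377, in exon 4 of 5) M-EPC had 199.5 and 197 CPM and OVX-EPC had 61.8 and 65.7 CPM. The groups stood far apart, with a log2 fold change of -1.65 ± 0.24 (SE, n = 2 per group, limma adjusted p = 0.000335). Of its 400 bases 67 were exonic and 40.8% were repeat-masked. The only other region within 10 kb, which was not in an exon, was also called lower, by 1.34 on the log2 scale.

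At the Stx2 5′ UTR region (chr5:128985241-128985640) M-EPC had 83.8 and 64.5 CPM and OVX-EPC had 13.9 and 27.4 CPM. Stx2 encodes a syntaxin, a membrane fusion protein, and its log2 fold change was -1.85 ± 0.34 (SE, limma adjusted p = 0.00543). At the Prune2 region (chr19:17120553-17120952) M-EPC had 53.9 and 43.6 CPM and OVX-EPC had 13.9 and 3.65 CPM. This region lay wholly within the 6550 bp coding exon 8 of 20, and its log2 fold change was -2.46 ± 0.47 (SE, limma adjusted p = 0.00713). The values rest on 27 and 25 reads in M-EPC and 7 and 2 reads in OVX-EPC, and the log2 fold change was -1.72 without OVX-EPC replicate 2 and -3.20 without OVX-EPC replicate 1. At 4930552P12Rik (chr19:55643391-55643790) M-EPC had 35.9 and 45.3 CPM and OVX-EPC had 7.97 and 14.6 CPM, with a log2 fold change of -1.76 ± 0.42 (SE, limma adjusted p = 0.0497). That is at the edge of the threshold. The next region, in exon 11 of 22 of Palld, an actin-binding protein gene, had a log2 fold change of -1.57 and did not pass (limma adjusted p = 0.0534).

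Gm20750 was called under all 15 alternative settings, and the other 3 were not called by DESeq2 or without either M-EPC replicate. Taking TMM factors or total reads as the scale left 3 regions, without 4930552P12Rik, beside 68 and 67 over all regions tested.

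None of the higher values passed, in limma (6 at an unadjusted p under 0.05), DESeq2 (0) or edgeR (9). The smallest p belonged to an exon of Tmem132d, with 14.0 and 27.9 CPM in M-EPC and 45.8 and 43.8 CPM in OVX-EPC (log2 fold change 1.06, limma adjusted p = 0.183). An exon of the long non-coding RNA gene 2610037D02Rik (1.38) and the last exon of Zfp354c (1.26) came next. At an unadjusted p under 0.05 there were 84 exon and UTR regions (15.8% of those tested, against 16.1% of all regions). The groups did not overlap at 244 (45.8%, against 47.9% of all regions). Both shares were near those of all regions.

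The median log2 fold change of the 533 tested exon and UTR regions was -0.23, compared with -0.17 over all 16616 tested autosomal regions. The difference was -0.058, where the same score between the M-EPC replicates was -0.018 and between the OVX-EPC replicates -0.029. It was 0.044 among the 135 exon and UTR regions with at least 30 in 2 or more libraries and -0.19 with no filter. By class the median was -0.21 in 444 exon regions, -0.45 in 23 5′ UTR regions and -0.35 in 66 3′ UTR regions. The 145 zinc finger regions tested had a median of -0.23 and 0 of them was called by limma (17 at an unadjusted p under 0.05), DESeq2 or edgeR. The 388 others had a median of -0.22. Predicted genes had a median of -0.10 over 76 tested regions, 2 of them called.

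**Figure D3:**
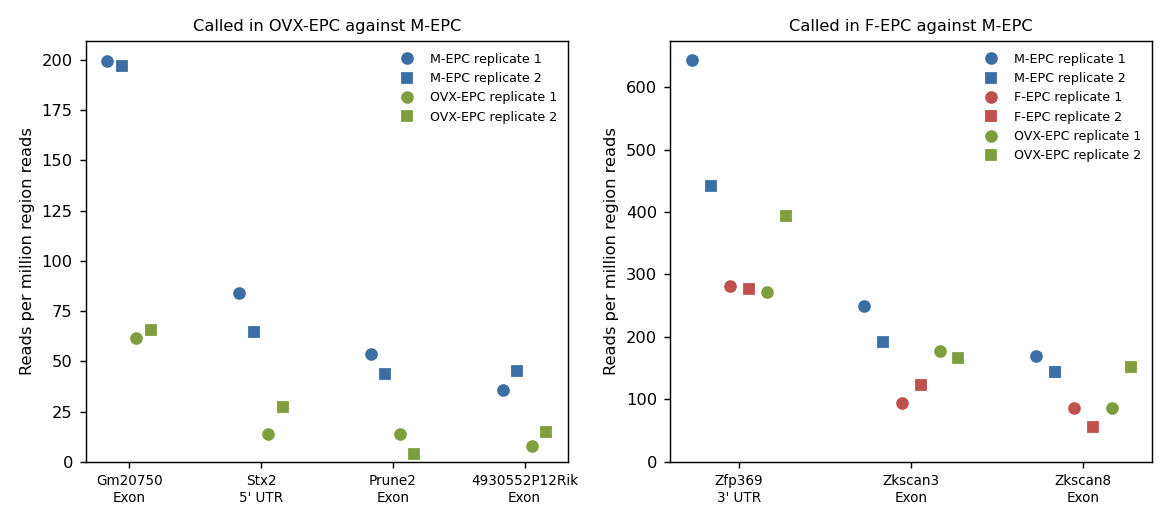
CPM in each library at the regions called in OVX-EPC against M-EPC (left, scaled to the reads of all regions) and in F-EPC against M-EPC (right, scaled to covered-region reads). Every M-EPC point lies above the points of the group it was compared with, and OVX-EPC replicate 2 lies above both F-EPC libraries at Zfp369, Zkscan3 and Zkscan8.

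The comparison of intact female with male cells used covered regions alone. H3K9me3 was lower in F-EPC at 3 regions and higher at 0 (limma, 7 higher at an unadjusted p under 0.05), and all 3 were in zinc finger genes of chromosome 13, Zfp369, Zkscan3 and Zkscan8. With F-EPC used on few chromosomes, chromosome 13 held 29 of the 45 covered zinc finger regions. Of the 714 covered exon and UTR regions 226 were tested. Over all 8139 regions tested 1.79% were called and 1.62% were called lower.

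At the 3′ UTR of Zfp369 (chr13:65297466-65297865) M-EPC had 644 and 442 CPM and F-EPC had 281 and 277 CPM, while OVX-EPC had 273 and 394 CPM. The log2 fold change of F-EPC against M-EPC was -1.003 ± 0.21 (SE, n = 2 per group, limma adjusted p = 0.0172). Both neighbouring regions within 10 kb had fold changes below 0, of -0.81 and -0.70, and neither passed.

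At the last exon of Zkscan3 (chr13:21388160-21388559, exon 6 of 6) M-EPC had 249.6 and 191 CPM, F-EPC had 93.6 and 123 CPM and OVX-EPC had 177 and 166 CPM. The log2 fold change of F-EPC against M-EPC was -1.08 ± 0.28 (SE, limma adjusted p = 0.0445). At the last exon of Zkscan8 (chr13:21520249-21520648, exon 6 of 6) M-EPC had 169.7 and 144 CPM, F-EPC had 86.7 and 55.5 CPM and OVX-EPC had 86.1 and 152 CPM. Its log2 fold change was -1.20 ± 0.32 (SE, limma adjusted p = 0.0465). Both genes combine zinc fingers with a SCAN domain, a protein interaction module. In the 3 regions 71.8% to 89.6% of the words were unique, so reads of related genes may be among them.

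Each of the 3 calls depended on the setting. None was kept by DESeq2 (0 called, 15 at an unadjusted p under 0.05), while edgeR called 11 exon and UTR regions, 2 higher and 9 lower. Over all 8139 regions tested DESeq2 called 8 (445 at an unadjusted p under 0.05). There edgeR called 322, of which 50 were higher and 272 lower. With TMM factors or total reads as the scale 2 exon and UTR regions were called, of which 1 was higher and 1 lower. Over all regions these scales gave 100 and 118 calls. The higher exon and UTR region was the 3′ UTR of Nkiras2, an inhibitor of NF-κB signalling. It had 259.6 and 170.0 CPM in M-EPC, 381 and 404 CPM in F-EPC and 306 and 273 CPM in OVX-EPC, with a log2 fold change of 0.81 in the main fit (limma adjusted p = 0.0704). The 3′ UTR of Osm, which encodes the cytokine oncostatin M, had 9.99 and 17.0 CPM in M-EPC and 65.9 and 51.5 CPM in F-EPC (log2 fold change 1.78, limma adjusted p = 0.103). Among regions with lower values in F-EPC, exons of the transporter gene Slc12a7 and of Btnl9 missed the threshold (limma adjusted p = 0.05003 for both).

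At an unadjusted p under 0.05 there were 46 exon and UTR regions (20.4% of those tested, against 22.8% of all regions), and the groups did not overlap at 124 (54.9%, against 53.8%). The median log2 fold change was -0.33 over the 226 tested regions and -0.19 over all 8139. The difference was -0.13, where the same score between the M-EPC replicates was 0 and between the F-EPC replicates -0.018. It was 0.015 among the 48 exon and UTR regions with at least 30 in 2 or more libraries and -0.30 with no filter. Below 0 were 32 of the 38 zinc finger regions tested, 139 of the 188 others and 5042 of all 8139 autosomal regions. The zinc finger regions had a median of -0.49 and the others had a median of -0.30. With total reads as the scale these medians were -0.41 and -0.23, and the autosomal median was -0.12. With a minimum of 30 they were -0.51 over 20 zinc finger regions and -0.31 over 28 others, beside -0.40 over all autosomal regions. Without M-EPC replicate 1 the zinc finger median was -0.51.

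**Figure D4:**
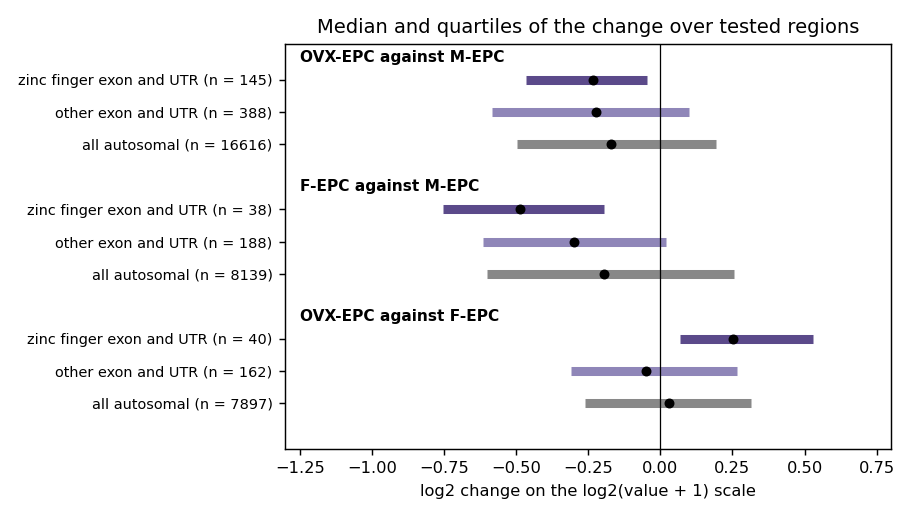
Median (black point) and quartiles (bar) of the log2 fold change over tested regions in each comparison, for zinc finger exon and UTR regions, other exon and UTR regions and all autosomal regions. In F-EPC against M-EPC the zinc finger median is -0.49 beside -0.19 over all autosomal regions, and in OVX-EPC against F-EPC it is 0.25 beside 0.03.

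Ovariectomized and intact female cells showed no called exon or UTR region. Of 202 tested, limma called 0, with 18 at an unadjusted p under 0.05 (8.91%, against 6.22% of all regions). DESeq2 called 0 (2 unadjusted, against 46 of all regions) and edgeR called 0 (17 unadjusted, against 512 of all regions). Over all 7897 regions 0.0127% were called, a single lower one. The groups did not overlap at 76 exon and UTR regions (37.6%, against 35.4%).

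The regions with the smallest p and higher values in OVX-EPC included 3 in zinc finger genes of chromosome 13, which held 29 of the 45 covered zinc finger regions. The last exon of Zfp369 had 153 and 135 CPM in F-EPC and 211 and 296 CPM in OVX-EPC (log2 fold change 0.80, limma adjusted p = 0.768). Only 51.1% of its words were unique. Zfp729b had 198 and 111 CPM in F-EPC and 244 and 251 CPM in OVX-EPC, and Zfp748 had 27.7 and 19.8 CPM in F-EPC and 67.0 and 58.2 CPM in OVX-EPC. Exons of Ahnak2 and Llgl2 completed the 5. Lower values in OVX-EPC with the smallest p were at Fam186a, which had 329 and 424 CPM in F-EPC and 234 and 273 CPM in OVX-EPC, and at Efr3b, Shisa6, Gm19026 and the 3′ UTR of Nkiras2.

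Between OVX-EPC and F-EPC 34 of the 40 zinc finger regions tested had a log2 fold change above 0. So did 72 of the 162 others and 4183 of all 7897 autosomal regions. The medians were 0.25 in the zinc finger regions, -0.05 in the others and 0.03 over all autosomal regions. With total reads as the scale these were 0.23, -0.07 and 0.01. With a minimum of 30 they were 0.24, 0.09 and 0.08. On leaving out 1 library the zinc finger median was highest without OVX-EPC replicate 1, at 0.47, and lowest without F-EPC replicate 2, at 0.17, where the autosomal median was 0.05. The 3 comparisons share libraries, so their medians are not independent of each other. No test of a difference between the zinc finger regions and others was made.

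A small share of the reads in regions fell in exon and UTR regions. In covered regions it was 3.504% (95% Wilson interval 3.42% to 3.59%) and 3.44% (3.36% to 3.51%) in M-EPC. It was 2.95% (2.88% to 3.01%) and 3.004% (2.94% to 3.07%) in F-EPC, and 3.16% (3.08% to 3.23%) and 3.16% (3.09% to 3.24%) in OVX-EPC. The groups did not overlap, with M-EPC highest and F-EPC lowest. The intervals cover counting error only.

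The mean share in F-EPC minus that in M-EPC was -0.495 percentage points, and OVX-EPC minus F-EPC was 0.185 points. Among regions with at least 30 reads in 2 or more libraries these differences were -0.196 (exact permutation test, p = 0.667, with overlapping groups) and 0.339 points. Over all autosomes the share was 3.498% ± 0.026 (SD, n = 2) in OVX-EPC and 3.904% ± 0.084 (SD, n = 2) in M-EPC. The difference there was -0.405 points, and -0.109 points among regions with at least 30 reads (exact permutation test, p = 0.667). Over all regions used, each of the 3 comparisons gave p = 0.333 in a two-sided exact permutation test, the smallest that 2 libraries against 2 allow. The 45 zinc finger regions held 0.608% and 0.596% of covered reads in the M-EPC libraries, 0.462% and 0.427% in those of F-EPC, and 0.505% and 0.584% in those of OVX-EPC. The 5′ UTR regions alone held 0.133% ± 0.0014 in M-EPC and 0.0987% ± 0.0017 in F-EPC (SD, n = 2 each). The 3′ UTR regions alone held 0.368% ± 0.0068 of the M-EPC reads against 0.354% ± 0.018 for F-EPC, and these groups overlapped (exact permutation test, p = 0.667).

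**Figure D5:**
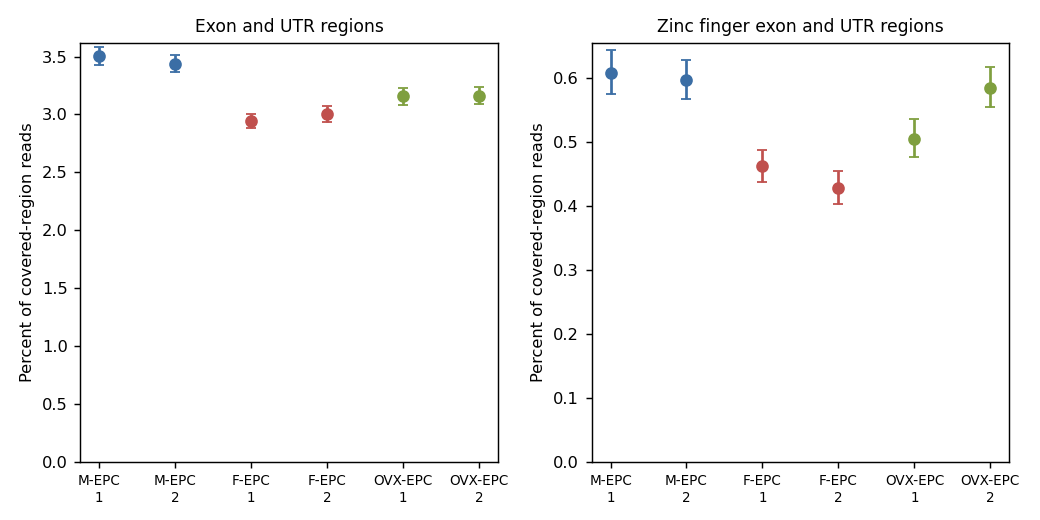
Percent of each library's covered-region reads that fell in exon and UTR regions (left) and in zinc finger exon and UTR regions (right), with 95% Wilson intervals as error bars. On the left the M-EPC libraries stand at 3.44% and 3.504%, above OVX-EPC at 3.16% and F-EPC at 2.95% and 3.004%, and on the right OVX-EPC replicate 1 stands lower than replicate 2.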

How the data were processed

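CUT&Tag libraries for H3K9me3 from 3 groups of 2 were read from the 3 tables the authors deposited, 1 per pair of groups. The authors' methods name Bowtie2, Picard, MACS, HOMER and ChIPseeker, the submitters' processing notes name BWA and MACS2, and both name the mm10 genome. Which aligner made the deposited values is not settled by these sources. The deposited values are a normalized signal per region and library. Multiplied by a factor found for each library and table, 100% of values came within 0.001 of an integer, and these integers were used as reads. The tables' fold changes, p-values, adjusted p-values and mean levels are the authors' own comparisons and were not used, and 0 sample columns were left unmapped.

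Because the values are normalized, the test was limma 3.58.1 (trended variance, no covariates) on log2(value + 1) over all regions with a value of at least 10 in at least 2 of the 4 libraries, adjusted by Benjamini-Hochberg. Fold changes on this scale understate those of weak regions. A region could pass the minimum through the group where it was higher alone. Among the regions named above that did not pass, this held for 2610037D02Rik, Zfp354c, Palld, Slc12a7, Osm and Zfp748 in the comparison they were named for. Alternatives used pseudocounts of 0.1 and 5, no filter, a minimum of 30, TMM factors, total reads, edgeR 4.0.16 and DESeq2 1.42.0 on recovered reads, removal of a GC trend, a replicate block, and leaving out each library. The fits were also run on simulated reads, the outcome of which is not given here and is no measure of the calls in these data. Leaving out regions with under 50% unique 25-base words was chosen after seeing the data. CPM are recovered reads per 1000000 reads in regions. Genes and exons came from GENCODE models on GRCm38, matched to the transcript the authors named or by overlap, and sequence from GRCm38.

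Named regions are, in each comparison, the called regions whose groups did not overlap, filled up to 5 per direction by the smallest p, the 5 highest in each class by mean CPM in M-EPC and OVX-EPC, and up to 4 per gene list. The regions and gene lists were chosen with earlier results of these data known. The methods describe removal of duplicate and poorly mapped reads, which can limit signal at strong regions and in repeats. Its effect on these values was not tested.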

Additional observations from a re-analysis of the deposited data

How the results depend on the processing

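In OVX-EPC against M-EPC the count of 4 called exon and UTR regions was 1 with DESeq2 and 1 to 10 on leaving out 1 library (1 without either M-EPC replicate, 10 without OVX-EPC replicate 2). In F-EPC against M-EPC the count of 3 was 8 with a pseudocount of 5, 8 with no filter, 6 with a minimum of 30 (1 higher), 0 with DESeq2, 11 with edgeR, 10 with the GC trend removed and 11 with a replicate block and the GC trend removed. It was 1 to 17 on leaving out 1 library (1, a higher one, without M-EPC replicate 1 and 17 without M-EPC replicate 2). In OVX-EPC against F-EPC it was 0 to 1, with 1 without OVX-EPC replicate 2. The replicate numbers pair nothing in the labels, and deviations of same-numbered libraries had correlations of -0.018, -0.052 and -0.031. With the replicate block the counts were 5, 2 and 0, beside 103, 166 and 0 over all regions, and Zkscan3 and Zkscan8 were not called. Leaving out poorly unique regions gave 4, 3 and 0, as before.

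The median change relative to all autosomal regions, -0.058 in OVX-EPC against M-EPC, was -0.19 with no filter, 0.044 with a minimum of 30, -0.10 with the GC trend removed and -0.11 to -0.063 on leaving out 1 library. In F-EPC against M-EPC (-0.13) it was -0.12 with a pseudocount of 5, -0.30 with no filter, 0.015 with a minimum of 30, -0.18 with the GC trend removed and -0.14 to -0.094 on leaving out 1 library. In OVX-EPC against F-EPC (-0.014) it was -0.0046, 0.081, 0.095 and -0.033 under these 4 settings and 0.019 to 0.044 on leaving out 1 library, so its sign was not stable. For this change the setting without a filter was itself chosen after seeing the data. The share of reads kept its direction, at -0.46 to -0.35, -0.53 to -0.46 and 0.16 to 0.21 points in the 3 comparisons on leaving out 1 library and -0.109, -0.196 and 0.339 points among regions with at least 30 reads, except that UTR regions alone gave -0.015 points in OVX-EPC against F-EPC. The level difference turned from -0.12 to 0.087 against introns only. The causes were not tested. Depth, with medians of 5 to 7 reads per covered region, limits every single-region value.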

Other observations

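Outside the covered regions, F-EPC replicate 1 held 0 reads in the 877 exon and UTR regions there, and F-EPC replicate 2 held 4060 reads in 359 of them. These reads entered no comparison. Replicates of 1 group differed by more than counting noise over autosomal regions with at least 20 reads in sum, with a chi-square per degree of freedom of 1.20 for M-EPC, 1.17 for F-EPC and 1.16 for OVX-EPC. Over exon and UTR regions, replicates had a Pearson correlation of log2(reads + 1) across regions of 0.74 for M-EPC, 0.70 for F-EPC and 0.76 for OVX-EPC, and regions are not independent replicates.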
